A study of Mus musculus with 4 samples.

Results

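The Gadd45 genes and genes around the tumour suppressor p53 were followed through silencing of the nuclear receptor NR4A3 and through LPS stimulation in mouse dendritic cells. The 8 genes were listed by symbol, as the Gadd45 family (Gadd45a, Gadd45b, Gadd45g) and genes of the p53 pathway (Cdkn1a, Mdm2, Trp53, Trp53inp1, Ccng1), and each was taken at its brightest probe set that names 1 gene. Of these, 6 of the 8 could be measured, among 19938 genes named on the array. Cdkn1a is named only on a probe set that also names another gene, and Trp53 has no probe set in the annotation used here, so neither was analysed here.

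Dendritic cells had been grown from mouse bone marrow for 10 days with 20 ng/mL GM-CSF and 10% serum, and were nucleofected with siRNA on day 10. LPS, a component of the outer membrane of Gram-negative bacteria that TLR4 senses, was added at 100 ng/mL 24 hours later, and the cells were harvested after another 24 hours. The 4 conditions were NR4A3 siRNA with LPS, control siRNA with LPS, NR4A3 siRNA unstimulated and control siRNA unstimulated, with 1 array each. The growth protocol gives the mice as BALB/c and the sample labels as C57BL/6. The sources used here do not give the siRNA sequences or how many mice were pooled. All 4 conditions had been transfected, and untransfected cells were not analysed here.

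The log2 expression values had medians of 6.37 to 6.42 per array over all probe sets. The targeted gene, Nr4a3, stood at 9.39 with NR4A3 siRNA against 11.77 with control siRNA under LPS, and at 7.15 against 11.21 without LPS. Of 10 dendritic cell markers, 9 reached the median level of all named genes, 6.66, on some array, and Itgax (CD11c) lay between 12.38 and 12.89. Flt3 stayed below 6.66 on every array. None of the 9 measured T and NK cell markers, the 7 B cell markers or the 4 erythroid markers reached 6.66 on any array. All 8 measured macrophage and monocyte markers did, among them Lyz2 and Cd68, as did 1 of 10 granulocyte markers, 2 of 8 mast cell and basophil markers and 6 of 8 stromal markers.

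The Gadd45 proteins are small acidic proteins with no enzyme activity of their own. They bind partners such as the kinase MAP3K4, which feeds the p38 and JNK pathways, and the cell cycle kinase CDK1. Gadd45a is a classical target of p53 after DNA damage, Gadd45b is induced through NF-kB and by differentiation signals in myeloid cells, and Gadd45g is known for cytokine induction. p53 itself is controlled mainly at the protein level: Mdm2 encodes the ubiquitin ligase that degrades it and is at the same time its target gene, which closes a feedback loop. Ccng1 (cyclin G1) and Trp53inp1, a stress protein with roles in cell death and autophagy, are further p53 targets.

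The promoters of the 3 Gadd45 genes, of Mdm2 and of Ccng1 are shown because these genes share a family or an upstream regulator and yet differed in how they moved. The windows hold the 250 bases before the start used in the promoter table, 5′ to 3′ on the gene's strand, from RefSeq on build GRCm38.p6. For Ccng1 that start lies inside the annotated gene, so its window overlaps the gene by 23 bases; the other printed windows end just before the gene's first base. The Gadd45b window lies at chr10:80929841-80930090 (plus strand), the Gadd45a window at chr6:67037408-67037657 (minus strand), the Gadd45g window at chr13:51846425-51846674 (plus strand), the Mdm2 window at chr10:117710759-117711008 (minus strand) and the Ccng1 window at chr11:40755287-40755536 (minus strand). Capitals mark a match to the p53 half-site consensus or to the TATA box TATAAA, on either strand.
Gadd45b: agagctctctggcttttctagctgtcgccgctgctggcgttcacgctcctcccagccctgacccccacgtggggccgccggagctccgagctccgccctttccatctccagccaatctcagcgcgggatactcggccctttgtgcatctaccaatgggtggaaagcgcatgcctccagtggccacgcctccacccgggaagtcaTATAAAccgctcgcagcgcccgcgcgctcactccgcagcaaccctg
Gadd45a: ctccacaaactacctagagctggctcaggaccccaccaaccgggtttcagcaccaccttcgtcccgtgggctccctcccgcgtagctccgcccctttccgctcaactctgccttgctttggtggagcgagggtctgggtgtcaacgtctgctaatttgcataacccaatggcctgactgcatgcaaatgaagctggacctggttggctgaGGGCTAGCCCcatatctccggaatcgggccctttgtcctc
Gadd45g: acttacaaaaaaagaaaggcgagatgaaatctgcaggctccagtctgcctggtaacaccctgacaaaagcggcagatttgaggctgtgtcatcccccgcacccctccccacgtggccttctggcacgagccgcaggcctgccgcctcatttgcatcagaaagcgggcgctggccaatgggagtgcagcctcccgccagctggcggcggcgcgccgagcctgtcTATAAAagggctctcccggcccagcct
Mdm2: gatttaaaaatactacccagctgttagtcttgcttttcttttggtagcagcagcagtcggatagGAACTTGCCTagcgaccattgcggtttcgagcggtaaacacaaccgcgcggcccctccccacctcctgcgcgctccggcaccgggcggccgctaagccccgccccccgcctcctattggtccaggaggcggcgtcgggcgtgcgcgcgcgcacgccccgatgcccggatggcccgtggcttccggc
Ccng1: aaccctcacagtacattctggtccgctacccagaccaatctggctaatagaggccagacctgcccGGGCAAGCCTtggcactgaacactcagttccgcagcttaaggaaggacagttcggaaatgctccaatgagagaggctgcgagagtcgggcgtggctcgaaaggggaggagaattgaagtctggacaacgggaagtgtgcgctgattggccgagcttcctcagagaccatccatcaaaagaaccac

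Windows were found for 7 of the 8 listed genes, with 2 windows for Cdkn1a. Each printed window held 1 match. A p53 half-site match lay 40 bases before the start used for Gadd45a, 186 before that of Mdm2 and 185 before that of Ccng1, counted from the first base of the match. The consensus searched was RRRCWWGYYY, where R is A or G, W is A or T and Y is C or T. A half-site match shows only that these letters are present, and p53 binding was not tested. Of the Cdkn1a windows 1 held 2 matches, and the Trp53 window held 1. That makes 5 of 8 windows, against 7.13% of all 32851 promoter windows of the same length. Several of these genes were listed because they belong to the p53 pathway, so the share is a description. Gadd45b and Gadd45g held no p53 half-site match but a TATAAA, 46 and 27 bases before the start. The Trp53 window held this motif as well, on the other strand and 248 bases before the start. The motif was found in 12.4% of all windows, counted at any position and on either strand. It was searched for after the windows had been read. The NR4A element NBRE (AAAGGTCA, in 1.34% of all windows), the kB consensus (7.25%), the AP-1 element TGANTCA (6.75%) and the CRE element TGACGTCA (1.55%), searched on both strands, were in none of the windows of these genes, which says only that these letters are absent there.

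Gadd45b was the member that moved most. Its log2 level was 11.18 with NR4A3 siRNA and LPS, 11.94 with control siRNA and LPS, 8.50 with NR4A3 siRNA unstimulated and 10.35 with control siRNA unstimulated. Both LPS arrays lay above both unstimulated arrays, and in each state the NR4A3 siRNA array lay below the control siRNA array. In bulk RNA, fewer cells of a type and less RNA per cell cannot be told apart.

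Without LPS, the siRNA pair asks how silencing of NR4A3 changes resting cells. Gadd45b was 3.59-fold lower with NR4A3 siRNA, a log2 difference of -1.84. This ranked 47th from the lowest of 10257 genes whose brighter array reached 6.66. A difference was counted from 1.5-fold, a log2 difference of 0.58. By that count 1 of 6 members was lower and 0 were higher, where 4.69% of all genes were lower and 1.62% higher. The other members differed little: Gadd45g stood at 8.11 with NR4A3 siRNA against 7.76 with control siRNA, a difference of 0.35. Mdm2 was at 9.79 against 9.95, Trp53inp1 at 10.01 against 10.17, Ccng1 at 12.28 against 12.44 and Gadd45a at 8.35 against 8.39. These 4 differences lay between -0.17 and -0.04, where the median size over all genes was 0.15.

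With LPS, Gadd45b was again the 1 member of 6 past 1.5-fold, at 1.69-fold lower with NR4A3 siRNA (-0.76, 304th from the lowest of 10210 genes). Among all genes, 4.73% were lower and 3.73% higher by the same count. Gadd45a lay just outside it in the other direction, at 8.61 with NR4A3 siRNA against 8.04 with control siRNA, 1.48-fold higher. Gadd45g (7.87 against 7.69), Mdm2 (11.10 against 10.87) and Ccng1 (12.18 against 12.04) were slightly higher, by 0.14 to 0.23, and Trp53inp1 by 0.10. The median size over all genes was 0.18 in this comparison. The pairs of arrays without and with LPS share no array, and Gadd45g and Gadd45b were the members with the same sign in both.

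LPS moved 3 members past 1.5-fold under either siRNA, Gadd45b and Mdm2 upwards and Trp53inp1 downwards. Gadd45b was 6.40-fold higher with LPS in NR4A3 siRNA cells (2.68, 90th from the highest of 10353 genes) and 3.02-fold higher in control siRNA cells (1.59, 260th from the highest of 10346). In NR4A3 siRNA cells, 10.3% of all genes were higher by this count and 6.88% lower. In control siRNA cells, 10.2% were higher and 9.44% lower.

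Mdm2 was the second member with more signal under LPS. Its level was 11.10 with LPS against 9.79 without in NR4A3 siRNA cells, 2.48-fold higher, and 10.87 against 9.95 in control siRNA cells, 1.89-fold higher. Neither LPS array overlapped with the unstimulated ones. Trp53inp1 went the other way, at 8.9985 with LPS against 10.01 without in NR4A3 siRNA cells, 2.01-fold lower, and at 8.90 against 10.17 in control siRNA cells, 2.42-fold lower. All LPS values of Trp53inp1 lay below all unstimulated values, and so did those of Ccng1, which stayed under 1.5-fold. How many of all genes separate in this way with so few arrays was not counted. The separation alone therefore does not set Gadd45b, Mdm2 or Trp53inp1 apart.

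The remaining members stayed under 1.5-fold with LPS. Ccng1 was at 12.18 with LPS against 12.28 without in NR4A3 siRNA cells and at 12.04 against 12.44 in control siRNA cells, lower both times. Gadd45g was lower both times as well, by 0.24 and 0.07. Gadd45a had opposite signs, at 8.61 with LPS against 8.35 without in NR4A3 siRNA cells and at 8.04 against 8.39 in control siRNA cells. Its 4 values spanned 0.57, those of Gadd45g 0.42 and those of Ccng1 0.40, against 3.44 for Gadd45b, 1.31 for Mdm2 and 1.27 for Trp53inp1. The plot of levels shows the 3 wide and the 3 narrow patterns.

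**Figure D1:**
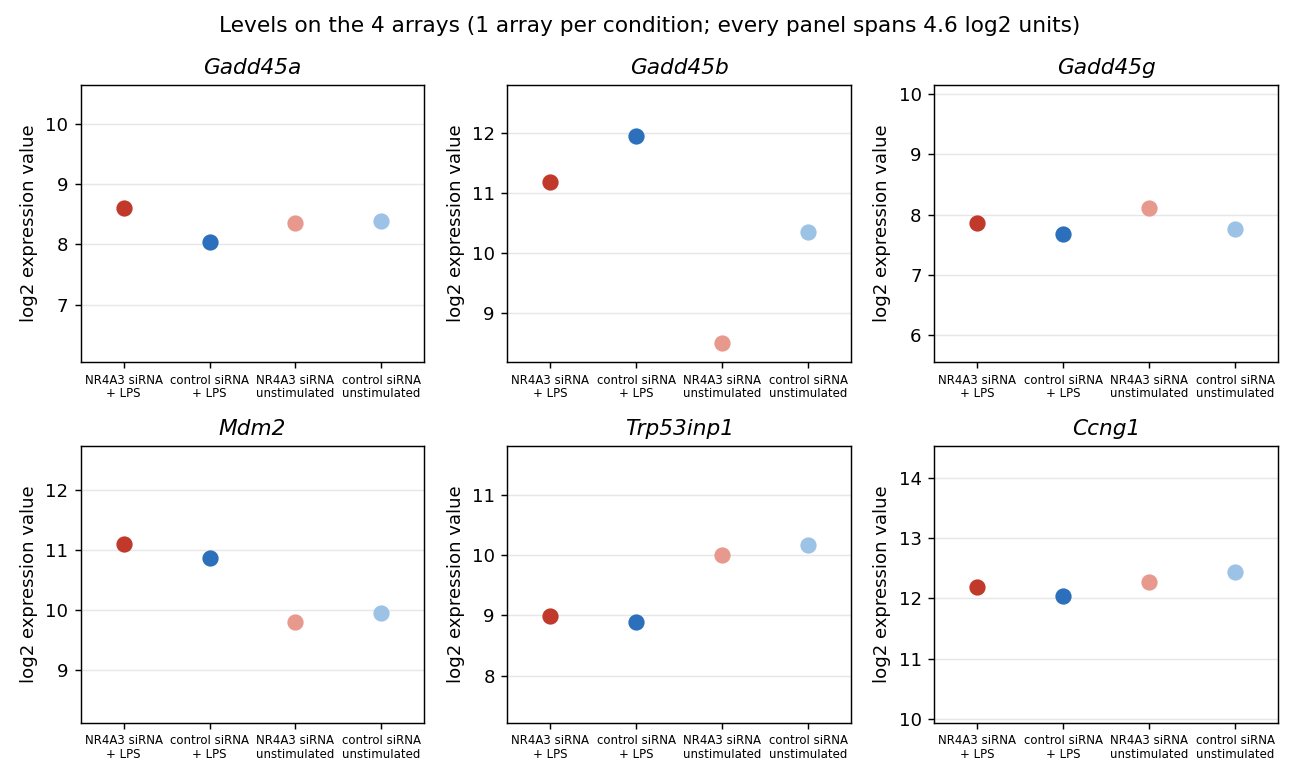
Log2 expression value (vertical axis) of the 6 measured genes on the 4 arrays, 1 point per array, each panel centred on the gene's mean and spanning the same range. Gadd45b ran between 8.50 and 11.94, Mdm2 and Trp53inp1 moved past 1.5-fold with LPS, and Gadd45a, Gadd45g and Ccng1 stayed within 0.57.

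**Figure D2:**
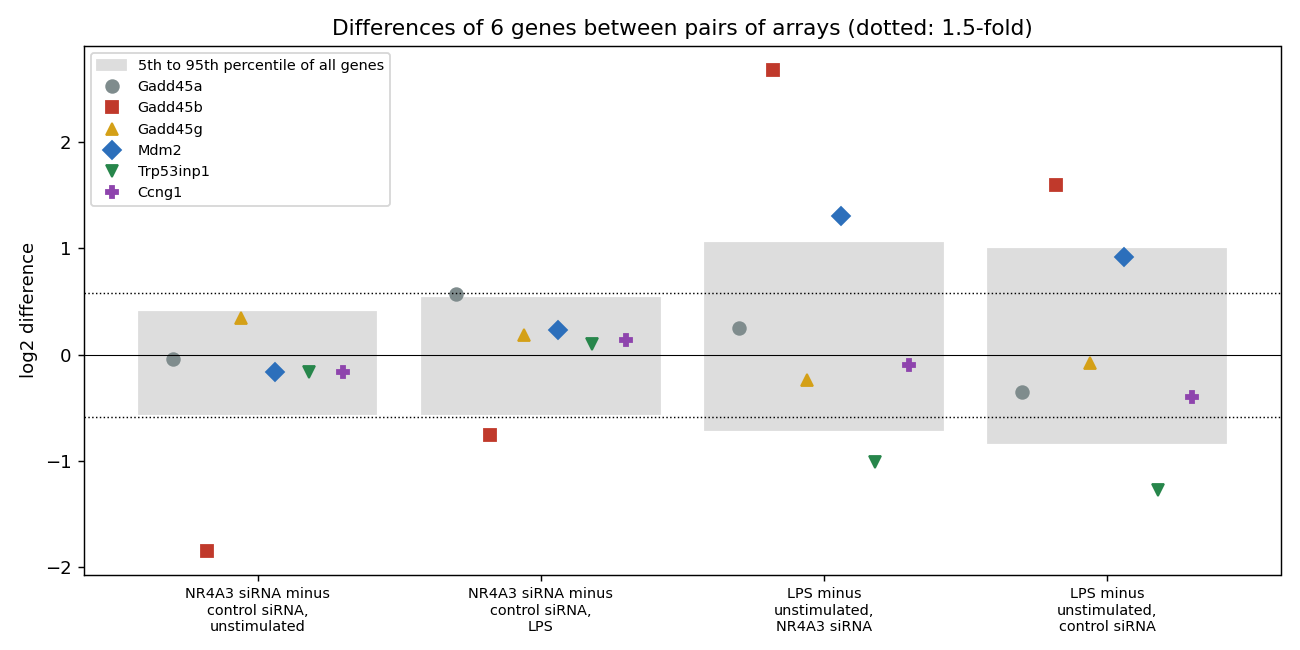
Log2 differences (vertical axis) of the 6 genes in the 4 pairs of arrays, with the 5th to 95th percentile of all genes past the filter as grey boxes and 1.5-fold as dotted lines. Gadd45b lay outside the grey box in all 4 pairs, Trp53inp1 in both LPS pairs, Mdm2 in the LPS pair with NR4A3 siRNA and Gadd45a narrowly in the siRNA pair with LPS.

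The order of the 4 arrays differed between members. From high to low it was control siRNA with LPS, NR4A3 siRNA with LPS, control siRNA unstimulated and NR4A3 siRNA unstimulated for Gadd45b, and for Mdm2 NR4A3 siRNA with LPS, control siRNA with LPS, control siRNA unstimulated and NR4A3 siRNA unstimulated. Trp53inp1 and Ccng1 shared 1 order, with control siRNA unstimulated highest and control siRNA with LPS lowest. With 1 array per condition, neighbours in these orders have no spread to be set against.

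The difference of the LPS effects, NR4A3 siRNA minus control siRNA, uses all 4 arrays and has no test. It was 1.09 for Gadd45b, which ranked 57th from the highest of 10592 genes, and 0.60 for Gadd45a, just inside the 1.5-fold count. By that count 2 of 6 members were higher and 0 lower, where 2.9% of all genes were higher and 2.12% lower. Mdm2 (0.39), Ccng1 (0.31) and Trp53inp1 (0.27) were also above zero, and Gadd45g (-0.16) was below it. The same value for Nr4a3 was 1.68. Gadd45a no longer reached 1.5-fold after the arrays were quantile normalized again (0.51) or after cyclic loess (0.55).

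An additive model of siRNA and LPS over the 4 arrays (limma, Benjamini-Hochberg over 10592 genes) gave the average effects. It has 1 residual degree of freedom, which holds array noise together with any unequal LPS response under the 2 siRNAs. The labels do not state separate cultures, so the p-values reflect only how these arrays scatter. For LPS, Gadd45b rose by 2.14 ± 0.25 (SE, adjusted p = 0.00222), a 4.39-fold higher level, and was higher in both pairs. Mdm2 rose by 1.11 ± 0.13 (SE), 2.16-fold, with an adjusted p of 0.0021. Trp53inp1 fell, with an average difference of -1.14 ± 0.11 (SE, adjusted p = 0.00122). Thus 2 members rose and 1 fell, where 15.6% of all genes rose and 14.4% fell. All 3 calls held in each of 8 alternative settings, with adjusted p-values up to 0.0282.

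For Ccng1 the average LPS effect was -0.25 (95% interval -0.53 to 0.04, adjusted p = 0.164), for Gadd45g -0.16 (-0.41 to 0.09, adjusted p = 0.3) and for Gadd45a -0.05 (-0.44 to 0.34, adjusted p = 0.855). These intervals leave room for a change in either direction.

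For NR4A3 siRNA, 1 member passed the threshold of 0.05. Gadd45b fell by an average of 1.30 on the log2 scale (95% interval -1.91 to -0.69, adjusted p = 0.0433), where 3.58% of all genes fell and 1.98% rose. The call was lost in 4 of 8 alternatives, with adjusted p-values of 0.0686 after repeated quantile normalization, 0.0774 after cyclic loess, 0.115 without the filter on dim genes and 0.139 with robust moderation. Over all 8 the adjusted p ran between 0.0287 and 0.139 while the estimate stayed between -1.34 and -1.30. Gadd45g had an average of 0.26 (0.01 to 0.51, adjusted p = 0.175) and Gadd45a one of 0.27 (-0.13 to 0.66, adjusted p = 0.342). Mdm2 (0.04, -0.28 to 0.35), Trp53inp1 (-0.03, -0.31 to 0.24) and Ccng1 (-0.01, -0.30 to 0.27) had estimates near zero, with adjusted p-values of 0.883 to 0.957.

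**Figure D3:**
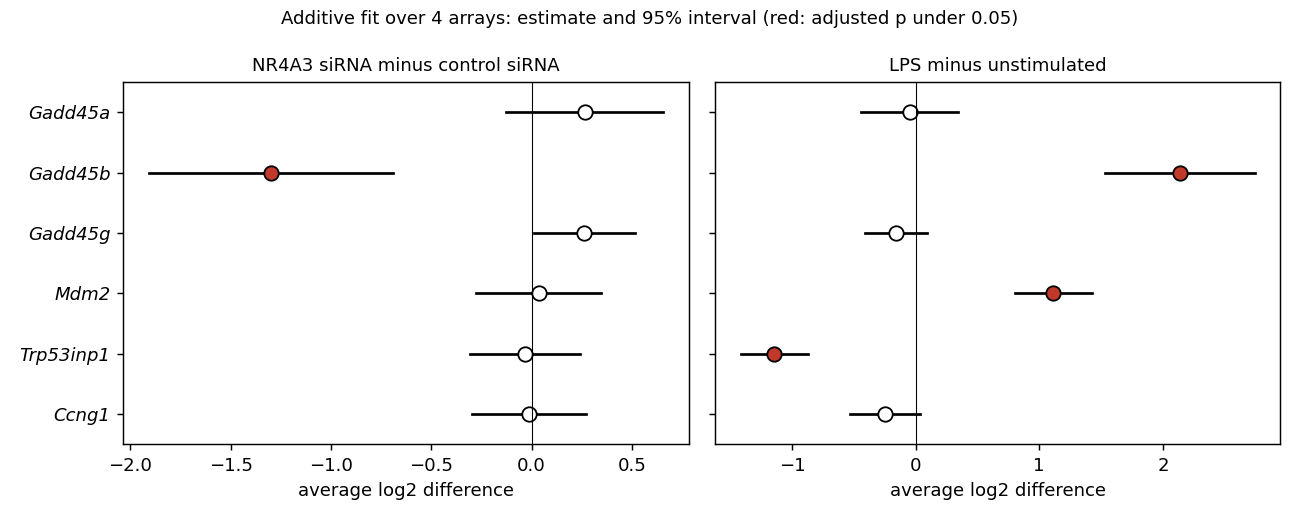
Average log2 difference (horizontal axis) of the 6 genes for NR4A3 siRNA minus control siRNA (left) and LPS minus unstimulated (right) from the additive fit, with 95% intervals and red points for an adjusted p under 0.05. For the siRNA the estimate of Gadd45b, -1.30, stood apart, and for LPS those of Gadd45b, Mdm2 and Trp53inp1 did.

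The p53 pathway around these genes was read through lists written for this purpose. Among 14 other p53 targets of cell cycle arrest and repair, 12 reached 6.66 on some array. In the additive fit 3 of these 12 fell with LPS and 0 rose, where 14.4% of all genes fell and 15.6% rose. Sesn1, a stress protein that restrains mTORC1, fell by 1.28 on average, Btg2, an antiproliferative gene, by 0.56, and the nucleotide excision repair gene Xpc by 0.42 (adjusted p = 0.000776, 0.0132 and 0.0254). The median over those 12 genes was -0.11, beside 0.00 for all genes. Sesn1 stood at 7.56 with LPS against 8.97 without in NR4A3 siRNA cells and at 7.50 against 8.65 in control siRNA cells. For NR4A3 siRNA 0 of the 12 rose and 0 fell in the limma fit, where 1.98% of all genes rose and 3.58% fell. None of them reached 1.5-fold in either siRNA pair.

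Among 18 other p53 targets of death and survival, 16 reached 6.66 on some array. With LPS 5 of these rose and 2 fell, where 15.6% of all genes rose and 14.4% fell. Tnfrsf23 and Tnfrsf22, decoy receptors of the TRAIL family, rose by 1.28 and 0.91 (adjusted p = 0.000599 and 0.00175), and, being close relatives, could share signal. The death receptor gene Fas rose by 0.79 (adjusted p = 0.0349), Dram1, a lysosomal protein of autophagy, by 0.38 (adjusted p = 0.0375) and the metabolic phosphatase gene Tigar by 0.35 (adjusted p = 0.0407). Zmat3, an RNA-binding protein, fell by 0.59 (adjusted p = 0.038) and the inflammasome adaptor gene Pycard by 0.40 (adjusted p = 0.0305). Fas and Zmat3 lost their calls in 3 of their alternatives, with adjusted p-values up to 0.0978 and 0.0817, Dram1 and Tigar in 1 each. The fitted median was 0.29 over the 16 genes.

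For NR4A3 siRNA 1 of the 16 death and survival targets fell and 1 rose, where 3.58% of all genes fell and 1.98% rose. Phlda3, a p53 target that restrains AKT signalling, was at 7.79 with NR4A3 siRNA against 8.65 with control siRNA under LPS, and at 7.90 against 9.24 without LPS. It fell, with an average difference of -1.10 (adjusted p = 0.0184, between 0.0102 and 0.0546 over 8 alternatives). Pycard rose by 0.51 (adjusted p = 0.0472, between 0.0373 and 0.0788). Xpc, Dram1, Tigar and Pycard are named because they passed the fit, as were Mdm4, Trp53inp2 and Mapk14 below.

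Other members of this list differed in single pairs. Pmaip1 (Noxa), a BH3-only death gene, was at 7.47 with NR4A3 siRNA against 8.27 with control siRNA without LPS, and at 7.94 against 8.29 with LPS, an average of -0.57 that missed the threshold (adjusted p = 0.0686). Fas was 1.72-fold lower with NR4A3 siRNA without LPS and differed by 0.08 with LPS. Perp, a membrane protein of desmosomes and cell death, had 6.06 with NR4A3 siRNA and LPS against 8.67 with control siRNA and LPS, 6.57 with NR4A3 siRNA unstimulated and 6.49 with control siRNA unstimulated. It was the 1 array with control siRNA and LPS that stood apart, and the other 3 lay under 6.66, so its folds are approximate.

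**Figure D4:**
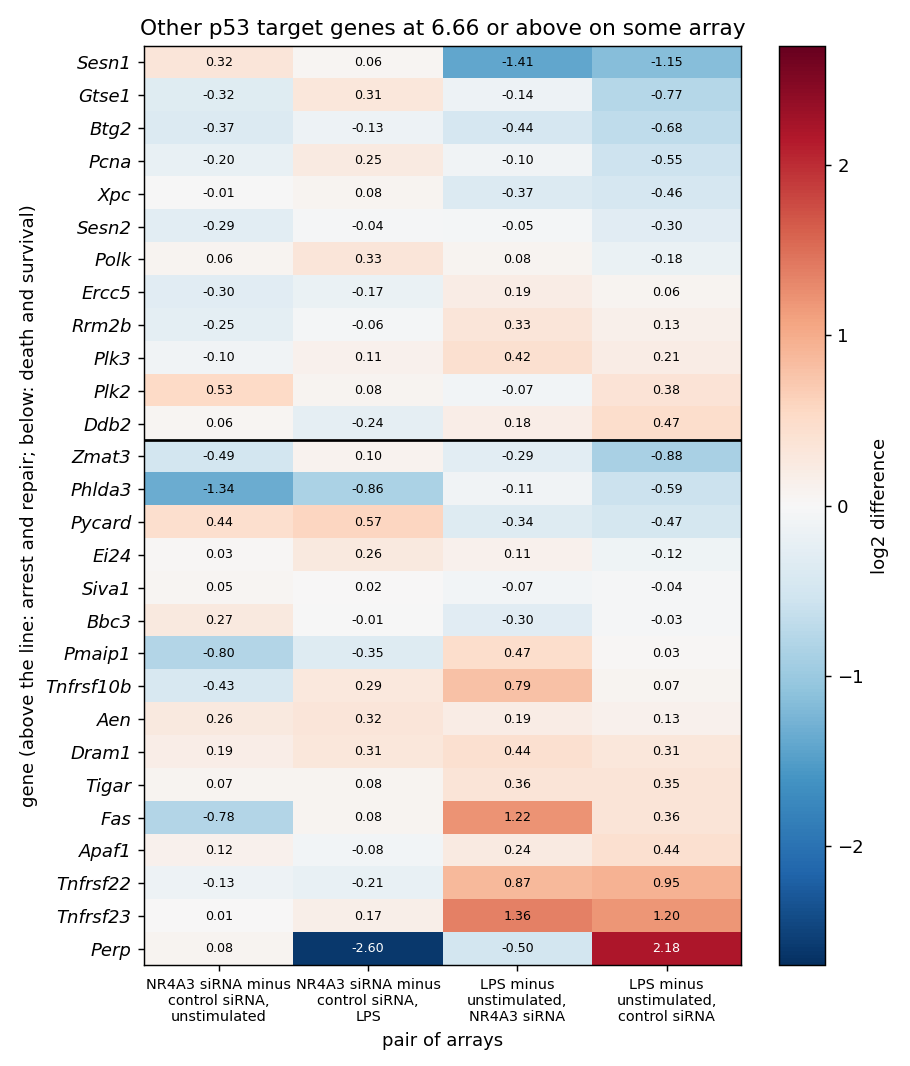
Log2 differences of the other p53 targets that reached 6.66 on some array, 12 of arrest and repair above the line and 16 of death and survival below it, in the 4 pairs of arrays. Sesn1 was lower with LPS in both pairs, Phlda3 lower with NR4A3 siRNA in both, and Perp stood out through the array with control siRNA and LPS.

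Of the regulators of p53, 17 of 21 measured besides Mdm2 reached 6.66. With LPS 1 rose and 2 fell, no larger a share than over all genes (15.6% and 14.4%). Mdm4, the partner of Mdm2 in restraining p53, rose by 0.51 (adjusted p = 0.013), while the checkpoint kinase gene Chek2 fell by 0.99 (adjusted p = 0.00168) and Trp53inp2, a relative of Trp53inp1, by 0.39 (adjusted p = 0.0318). For NR4A3 siRNA 0 of these 17 were called in the limma fit, where 1.98% of all genes rose and 3.58% fell.

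Of 12 genes on a list written for Gadd45 partners and p38 and JNK pathway kinases, 1 rose and 2 fell with LPS. Over all genes 15.6% rose and 14.4% fell. The list also holds Crip1, which is neither and which was not called. The kinase gene Map3k5 (ASK1) rose by 0.63 (adjusted p = 0.0119), Cdk1, which is also on the cell cycle list, fell by 1.01 (adjusted p = 0.00745) and Mapk14, which encodes p38 alpha, fell by 0.36 (adjusted p = 0.0461, lost in 2 of 8 alternatives at 0.053 and 0.0611). Map3k4, the kinase that Gadd45 proteins bind, missed the threshold at 0.33 (adjusted p = 0.0534). For NR4A3 siRNA 0 of the 12 were called, where 1.98% of all genes rose and 3.58% fell.

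Among 7 CDK inhibitors and related genes past the filter, not counting the listed members, Cdkn2b (p15) rose with LPS by 1.27 (adjusted p = 0.000714), and Cdkn2c (p18) and the phosphatase gene Cdkn3 fell by 0.90 and 1.22 (adjusted p = 0.00668 and 0.00933). Where 3.58% of all genes fell with NR4A3 siRNA, Cdkn2c was the 1 of 7 that did, by 1.08 (adjusted p = 0.0192, up to 0.0587 over 8 alternatives). It stood at 6.99 with NR4A3 siRNA against 7.83 with control siRNA under LPS and at 7.64 against 8.97 without LPS. Most cell cycle genes fell with LPS, as Cdkn2c and Cdkn3 did, while Gadd45b and Cdkn2b rose. In the fit 12 of 18 past the filter fell with LPS and 1 rose, and 2 fell with NR4A3 siRNA. Over all genes 14.4% fell and 15.6% rose with LPS, and 3.58% fell and 1.98% rose with the siRNA. In the siRNA pair without LPS the differences of Gadd45b and Cdkn2c were larger than with LPS. There 13 of 18 cell cycle genes were lower past 1.5-fold and 0 higher, where 4.69% of all genes were lower and 1.62% higher. The median over all 19 measured genes of the list was -0.71. In the pair with LPS 1 of 14 was lower and 0 higher, where 4.73% of all genes were lower and 3.73% higher. The median over the same 19 cell cycle genes was -0.18. Several of them lay under 6.66 on both LPS arrays, such as Kif11 (5.84 and 5.93), Plk1 (6.22 and 6.58) and Bub1 (6.09 and 6.45). So did Cdkn3 (6.13 and 6.22). Differences between such low values are approximate. The part of the cell cycle genes in the differences of Gadd45b, Cdkn2c, Cdkn3, Cdk1 and Chek2 was not tested.

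Among 17 NF-kB feedback and survival targets, 15 rose with LPS and 0 fell, with a median of 1.08. This list was set beside Gadd45b because NF-kB induces that gene. Over all genes 15.6% rose and 14.4% fell with LPS, and 1.98% rose and 3.58% fell with NR4A3 siRNA. For NR4A3 siRNA 4 fell and 0 rose, namely Traf1 (-1.20), Birc2 (-0.93), Rel (-0.91) and Relb (-0.87), with adjusted p-values of 0.0127 to 0.0282. Without the filter on dim genes Traf1, Relb and Rel lost their calls (adjusted p = 0.0679, 0.0719 and 0.0503). With the mean of all its probe sets, the Birc2 average was -0.54, still called (adjusted p up to 0.0372 over 8 alternatives), and its differences in both siRNA pairs were under 1.5-fold (-0.56 without LPS and -0.52 with LPS). The fitted median was -0.32, beside 0.03 for all genes. In the stress response list, Ppp1r15a (Gadd34), a phosphatase subunit that restores translation and shares only the name with the Gadd45 family, was the 1 of 12 that fell with NR4A3 siRNA (-0.74, adjusted p = 0.0189), and it rose with LPS by 0.70 (adjusted p = 0.00417). Ddit3 (CHOP, Gadd153) rose with LPS by 1.55 (adjusted p = 0.00042) and did not pass for the siRNA (-0.07, adjusted p = 0.711). In all, LPS raised 4 and lowered 1 of these 12 genes, beside 15.6% and 14.4% of all genes. The siRNA lowered 1 of the 12, beside 3.58% of all genes.

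Some dendritic cell markers differed with NR4A3 siRNA. Under LPS 3 of 8 past the filter were at least 1.5-fold lower and 0 higher, where 4.73% of all genes were lower and 3.73% higher. Without LPS 2 of 9 were lower and 1 higher, where 4.69% of all genes were lower and 1.62% higher. Ccr7 was lower, at 12.64 against 13.38 under LPS and at 9.46 against 12.99 without. Cd86 was lower too, at 10.44 against 11.51 under LPS and at 8.62 against 9.53 without. Zbtb46 was lower under LPS, at 6.82 against 7.46. Cd209a was higher without LPS, at 10.87 against 8.90. The median over all 10 markers was -0.12 under LPS and -0.02 without. In the fit 1 of 9, Cd86 (-0.99), fell with the siRNA and 0 rose, where 3.58% of all genes fell and 1.98% rose. Ccr7 had an average of -2.13 and was not called. The log2 of the summed level of all 10 markers was 15.17 with NR4A3 siRNA and LPS, 15.40 with control siRNA and LPS, 15.15 with NR4A3 siRNA unstimulated and 15.38 with control siRNA unstimulated. These sums add unlogged values, and Ccr7 alone carried most of their difference between the siRNAs. Of 8 macrophage markers, 2 were at least 1.5-fold higher with NR4A3 siRNA under LPS and 0 lower, namely Csf1r (0.71) and Mrc1 (0.68). Without LPS 0 were higher and 0 lower. In the fit 1 of 8, Mrc1 (0.63), rose with the siRNA and 0 fell. With LPS 3 of 8 rose, Fcgr1 (2.62), Adgre1 (1.68) and Cd14 (0.72), and 2 fell, Mrc1 (-3.92) and Mertk (-0.39). Of 9 dendritic cell markers 1 rose with LPS, Cd86 (1.89), and 2 fell, Cd209a (-4.16) and Itgax (-0.39). Over all genes 15.6% rose and 14.4% fell. The sums do not show these opposite changes. The macrophage markers had sums of 15.57, 15.38, 15.32 and 15.25 in the same order of arrays. Stromal markers had sums of 11.05, 10.85, 10.05 and 9.94 in that order, carried by Dcn (decorin) alone, at 10.31, 9.99, 7.06 and 7.30. In the fit Dcn was the 1 of 6 past the filter that rose with LPS, where 15.6% of all genes rose, and the median was -0.09. The part of these markers in the siRNA and LPS results was not tested.

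The genes with the pattern most like that of each wide member were found by the distance between the 4 log2 values, each gene centred on its own mean, among 1608 other genes with a span of at least 1. For Gadd45b these were Serpinb9, a granzyme B inhibitor (distance 0.11), Efna2 (0.24), the TNF receptor adaptor gene Traf1 (0.28) and Klrk1 (0.30). Serpinb9 stood at 10.26 with NR4A3 siRNA and LPS, 11.16 with control siRNA and LPS, 7.60 with NR4A3 siRNA unstimulated and 9.48 with control siRNA unstimulated. For Mdm2 they were Ankrd37 (0.06), the transglutaminase gene Tgm2 (0.08), Ppp4r2 (0.09) and Tarm1 (0.09). For Trp53inp1 they were the glycogen phosphorylase gene Pygl (0.08), Vps13b (0.10), Iqgap3 (0.11) and the transferrin gene Trf (0.11). The likeness rests on 4 arrays, and with so few points near neighbours are to be found for any pattern.

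**Figure D5:**
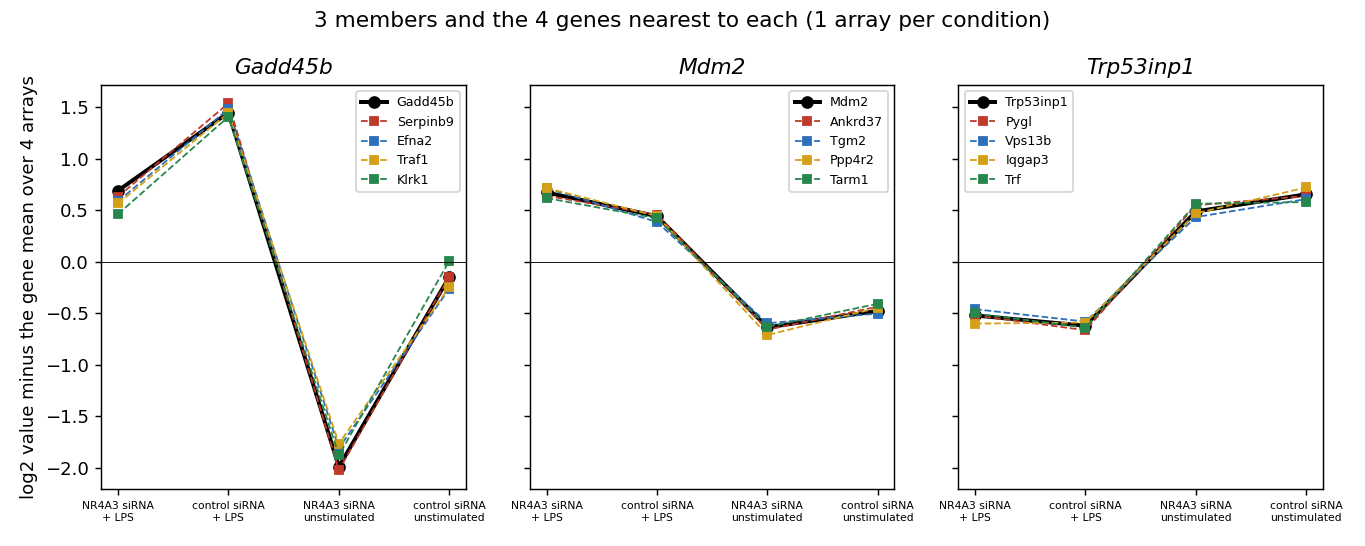
Log2 values minus each gene's mean over the 4 arrays (vertical axis) for Gadd45b, Mdm2 and Trp53inp1 (black) and the 4 nearest genes of each (dashed), by array. Gadd45b and its neighbours were lowest with NR4A3 siRNA unstimulated and highest with control siRNA and LPS.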

How the data were processed

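Each of the 4 conditions had 1 array of the Affymetrix Mouse Gene 1.0 ST type. Per the labels, the deposited log2 values are RMA values with quantile normalization, which the authors processed in GeneSpring. Affymetrix Expression Console 1.1 stands in the submitters' processing notes. Any earlier filter and the build are not stated. Because quantile normalization equalises the arrays, a change shared by most genes cannot be seen.

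Of 28856 probe sets, 21789 carried 1 gene symbol in the platform annotation, 1621 several and 5446 none. Genes were taken at their brightest single-symbol probe set. Pairwise log2 differences have no test. They were counted at 1.5-fold where the brighter array reached 6.66. Average effects came from limma 3.58.1 (R 4.3.3, 3 coefficients, 1 residual degree of freedom, prior of 4.759, adjusted p under 0.05). The fit was checked on simulated data with siRNA effects and noise only. These data held no LPS effect and no unequal LPS response, so the check does not cover them. The number of arrays limits the precision.

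The members and the 16 gene lists (191 of 210 entries measured) were chosen with earlier results of these data known. Named were all members, up to 5 genes per list and comparison past 1.5-fold, and the 4 nearest patterns. Alternatives covered normalization, probe sets, filter, fold and moderation.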

Additional observations from a re-analysis of the deposited data

Results flagged for a closer look

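The siRNA effect, or the LPS effect, had opposite signs in the 2 states or siRNAs for some genes, with a difference of effects past 1.5-fold. With 1 array per condition none of these differences was tested. Gadd45a had a siRNA difference of 0.57 with LPS against -0.04 without, and an LPS difference of 0.25 with NR4A3 siRNA against -0.35 with control siRNA, so that the effects differed by 0.60. For Perp the effects differed by -2.68, with siRNA differences of -2.60 with LPS and 0.08 without, and 3 of its 4 values lay under the filter. The effects of NR4A3 siRNA with and without LPS differed by 0.86 for Fas, 0.72 for Tnfrsf10b, 0.65 for Cdk1, 0.63 for Gtse1 and 0.59 for Zmat3. Some of these lie close to 1.5-fold: Zmat3 was at 0.55 after repeated quantile normalization and 0.57 after cyclic loess, Cdk1 at 0.57 after repeated quantile normalization, and Gadd45a at 0.51 and 0.55, all under it. Mki67, a proliferation marker, differed by 1.24, with LPS differences of 0.60 with NR4A3 siRNA and -0.64 with control siRNA.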

How the results depend on the processing

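The LPS effects on Gadd45b, Mdm2 and Trp53inp1 and the lower Gadd45b level without LPS kept their direction and their side of the 1.5-fold count or the adjusted p of 0.05 in the alternatives run, except that Mdm2 under control siRNA (0.92) missed a 2-fold threshold. The count of members past 1.5-fold was 0 at 2-fold for NR4A3 siRNA under LPS, where Gadd45b was at -0.76. For the difference of LPS effects it was 1 at 2-fold, after repeated quantile normalization, after cyclic loess and with a filter at the 75th percentile (8.67), in place of 2. The genes called for NR4A3 siRNA numbered 589, against 370 after repeated quantile normalization, 266 after cyclic loess and 156 without a filter; for LPS they numbered 3177 and stayed within 1.5 times. Of 302 values of members under alternatives, 10 lost their call and 0 changed sign once called; the cause was not tested. No paired analysis was possible because each condition has 1 array and no replicate number. No replicate could be left out, since that leaves no residual degrees of freedom.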
